A study of Homo sapiens with 14 samples.

Results

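The divergent promoter lncRNAs are the long noncoding RNA genes whose symbol ends in -DT, for divergent transcript, and they were found by symbol and gene type in GENCODE release 44. There were 589 of them among the 60876 genes with a transcript in the deposited tables, and all 589 had a transcript there. A read was assigned to 523 of them in at least 1 library and none to the other 66. Enough reads for a test were present for 181 (30.7%), so that the fold changes below describe 181 of the 589. A member reached this number through reads in any group, and 15 of the 181 would not have been tested without the libraries of 1 group. Of all genes in the tables, 15426 (25.3%) were tested. The shares were 23.4% for lncRNAs named as antisense and 10.4% for the remaining lncRNAs.

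RNA polymerase II often starts on both strands of a promoter. The transcript that runs away from a protein-coding gene is as a rule short-lived: poly(A) signals met soon after the start end it early, and the nuclear exosome, guided by the NEXT and PAXT adaptor complexes, degrades it. The -DT genes are divergent RNAs that were stable enough to have been annotated, often with introns and a poly(A) tail.

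The libraries were made from poly(A) RNA of MDA-MB-231, an established human triple-negative breast cancer line, with a kit that keeps the strand. There were 7 groups of 2 libraries. In addition to control cells, these were cells exposed to 5 µM of either compound, RBI2 or CX-5461, with labelled times of 10, 30 and 120 min. RBI2 is a small molecule inhibitor of ribosome biogenesis, and CX-5461, an inhibitor of RNA polymerase I, was the positive control compound. The methods of the study call the control cells not treated, whereas its text speaks of a DMSO control. Each time is that of the sample label, since the codes in the names of the deposited tables point to other times. Nothing says that replicates came from separate cultures, so the p-values measure the spread between these libraries. In bulk RNA, fewer cells with a transcript and less of it per cell cannot be told apart. Of the markers of the line, VIM lay between 2779 and 3387 CPM (counts scaled to the size of the library) and CD44 between 870.3 and 1252, while ESR1 reached at most 0.236 CPM, CDH1 at most 0.295 and PGR was at 0.

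Between 14112299 and 24849354 reads per library were assigned to transcripts. The -DT lncRNAs took between 7317 and 11992 of them, or 0.0475% to 0.0588% of the reads assigned to genes. From 370 to 412 members had a read in a given library, and from 124 to 173 had 10 or more. A level of 1 CPM stood for 12.5 to 24.6 reads, which limits the precision of most values below. The control libraries lay furthest apart: 8 of the 181 members differed by more than 2-fold between them, against 0 to 4 in each treated pair. Genes of the mitochondrial genome held 20.6% of the reads of control replicate 2 and 8.14% to 11.3% of those of the other libraries. The same 2 control libraries entered all 6 comparisons with the control.

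By the annotation, 588 of the 589 lncRNAs had a gene of the same symbol without -DT, called the partner here. In each case the partner was protein-coding. The exception was UHRF1BP1L-DT. In 587 pairs the genes lay on opposite strands, and the remaining one was the second of 2 genes that both carry the symbol TNFRSF10A-DT. The starts of the main annotated transcripts of a pair lay a median of 184 bases apart, with quartiles of 109 and 363 bases. In 499 pairs (85%) the distance was 0 to 1000 bases. In 33 pairs the transcripts overlapped at their starts, and in 55 pairs the starts were more than 1000 bases apart. For the 181 tested lncRNAs the median distance was 167 bases. The main transcript had 1 exon in 117 of the 587 (19.9%), a median of 3 exons and at most 15. Another gene on the same strand overlapped 98 of the members, 39 of them tested, and reads may be divided between such genes with less certainty.

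**Figure D1:**
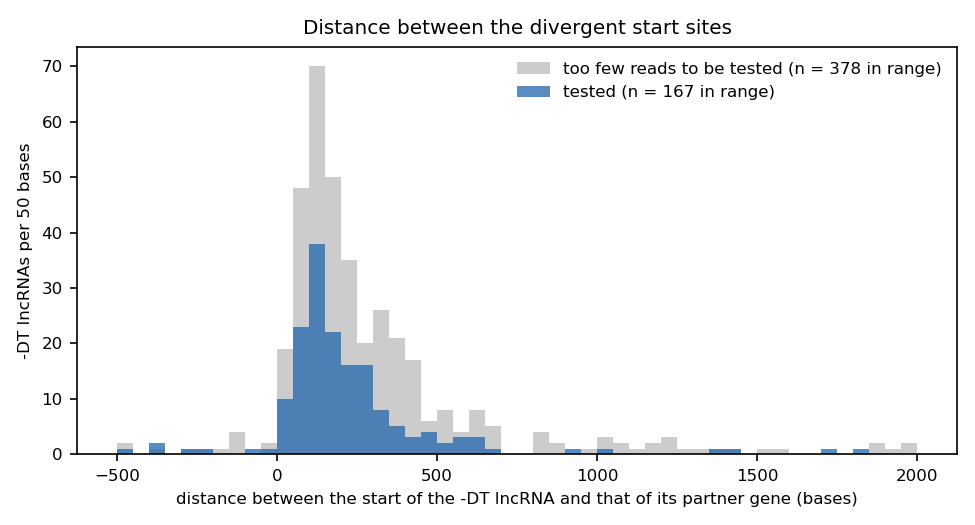
Distance in bases between the starts of a -DT lncRNA and its partner gene (x axis, 50-base bins) for the 545 of 587 opposite-strand pairs between -500 and 2000 bases, as the number of pairs (y axis), tested members in blue and the others in grey; negative values are overlapping starts. Both distributions rise just above 0, with medians of 167 bases for tested members and 193.5 bases for the others.

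For 6 of the members that passed the threshold in a comparison below, the bases between the pair are printed to show the sequence from which both are transcribed. They run from next to the partner's nearest GENCODE base to just before the start that RefSeq (GRCh38.p14) gives the lncRNA, on the strand of the lncRNA and at most 250 bases long. The RefSeq start differs from that of the main GENCODE transcript by 19 to 202 bases. For ANKRD42-DT, GOT1-DT, UBL7-DT and STAM-DT the stretch lies before the main GENCODE transcript, while 25 of the 31 bases of COX10-DT and 68 of the 160 of SUV39H2-DT lie within it. Longer GENCODE transcripts of the gene cover all 42 bases of ANKRD42-DT, all 31 of COX10-DT, 21 of GOT1-DT and 17 of UBL7-DT. Capitals mark GGGCGG, the core of the Sp1 box, or TATAAA, each on either strand. The stretches lie at chr11:83193670-83193711 (minus strand, 42 bases), chr17:14069459-14069489 (minus, 31 bases), chr10:14878660-14878819 (minus, 160 bases), chr10:17643919-17644150 (minus, 232 bases), chr10:99430686-99430935 (plus, the 250 bases next to the lncRNA's start) and chr15:74461183-74461264 (plus, 82 bases).
ANKRD42-DT: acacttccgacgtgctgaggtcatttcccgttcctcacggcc
COX10-DT: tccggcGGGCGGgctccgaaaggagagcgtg
SUV39H2-DT: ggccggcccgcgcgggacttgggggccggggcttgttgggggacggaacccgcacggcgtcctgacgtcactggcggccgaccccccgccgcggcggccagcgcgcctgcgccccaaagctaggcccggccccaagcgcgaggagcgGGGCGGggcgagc
STAM-DT: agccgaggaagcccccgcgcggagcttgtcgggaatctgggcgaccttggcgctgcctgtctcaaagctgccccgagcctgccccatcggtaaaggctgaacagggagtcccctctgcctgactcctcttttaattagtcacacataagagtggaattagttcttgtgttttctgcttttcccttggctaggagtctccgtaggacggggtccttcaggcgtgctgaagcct
GOT1-DT: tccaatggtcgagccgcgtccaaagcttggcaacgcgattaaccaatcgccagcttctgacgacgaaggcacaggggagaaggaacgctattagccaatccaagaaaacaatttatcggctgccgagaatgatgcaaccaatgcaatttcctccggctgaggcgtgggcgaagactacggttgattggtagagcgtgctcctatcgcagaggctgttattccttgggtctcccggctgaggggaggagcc
UBL7-DT: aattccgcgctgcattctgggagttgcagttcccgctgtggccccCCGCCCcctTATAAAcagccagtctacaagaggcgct
A GGGCGG was present in the stretches of COX10-DT, SUV39H2-DT and UBL7-DT, and TATAAA in that of UBL7-DT. The stretch of SUV39H2-DT was 81.2% G or C and held 25 CpG, while that of GOT1-DT was 54.8% G or C.

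These features are not limited to the 6. Of the 589 members, 441 had a promoter of 300 bases (250 before the start and 50 after) in the RefSeq table, and GGGCGG occurred on either strand in 72.8% of them, against 45% of all 35116 promoters there. TATAAA occurred in 3.85% against 11.5%. The median number of CpG was 31 against 14. In the 1000 bases of genome after the start, read in the sense of each transcript, the poly(A) signal AATAAA occurred in 37% of the 587 lncRNAs of opposite-strand pairs and in 14.8% of their partners. The share was 21.4% over all protein-coding genes and 44% over all lncRNAs without -DT. AATAAA stood only on the side of the lncRNA in 179 pairs and only on the side of the partner in 49. GTAAGT, a strong 5′ splice site sequence, occurred in 15.2% of the lncRNAs and 11.9% of the partners, beside 17.5% of all protein-coding genes and 23.1% of lncRNAs without -DT. The partner's side held more CpG in 484 of the 587 pairs. Among the lncRNAs themselves AATAAA followed the start in 28.7% of the 181 tested and in 40.6% of the 406 not tested. The median content of G or C in these windows was 53.1% and 49.8%. It was 51.3% over the 587 lncRNAs, 61% over their partners, 58% over all protein-coding genes and 46.5% over lncRNAs without -DT. The shares with AATAAA were not corrected for this content. These are shares of letters in a window and carry no test.

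Levels between genes are compared per length, in TPM (transcript counts scaled to length and to the size of the library) averaged over the 14 libraries. The 181 tested members had a median of 1.17 TPM and ranged from 0.128 to 22.7 TPM, and their partners had a median of 22.7 TPM. The median lncRNA stood at 6.12% of its partner. In 107 pairs it lay below 10% of the partner, and in 17 it lay above. The 10 highest members were ZDHHC12-DT (22.7 TPM), RAB30-DT (22.4), SLC12A2-DT (21.3), RNASEH1-DT (18.3), EMSY-DT (15.2), CRIM1-DT (12.2), APCDD1L-DT (11.6), UBA6-DT (9.49), ZNF584-DT (9.44) and MOCS2-DT (9.37), which together made up 27.9% of the TPM of all -DT lncRNAs. RAB30-DT was 6.13 times as high as RAB30, a small GTPase of the Golgi, which had 3.65 TPM. SLC12A2-DT was 2.14 times as high as SLC12A2, a sodium, potassium and chloride cotransporter, and APCDD1L-DT 1.93 times as high as APCDD1L. EMSY-DT stood at 1.45 times EMSY, which binds BRCA2. CRIM1-DT, by contrast, stood at 0.0894 times CRIM1, a membrane protein with a mean of 136.5 TPM. Of the 10 highest members, RAB30-DT, APCDD1L-DT and UBA6-DT overlap another gene on their strand, so that their levels are less certain.

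The sum over all 589 lncRNAs was 547.4 and 584.5 CPM in the control libraries (565.9 ± 26.2, mean ± SD, n = 2). With RBI2 the libraries held 501.8 and 519.7 CPM at 10 min, 539.1 and 537.5 CPM at 30 min, and 579.8 and 580.2 CPM at 120 min. With CX-5461 they held 474 and 469.1 CPM at 10 min, 513 and 537.3 CPM at 30 min, and 488.7 and 499.2 CPM at 120 min. Both libraries of CX-5461 at each of the 3 times lay below both control libraries, and so did those of RBI2 at 10 and 30 min, while those of RBI2 at 120 min lay between the 2 controls. At 120 min both RBI2 libraries lay above both CX-5461 libraries, at 580 ± 0.251 against 493.9 ± 7.43 CPM. The place of the control depends on scaling. With no scaling factor its mean was 527.5 CPM, below those of RBI2 at 30 min (556.3) and 120 min (580.6) and of CX-5461 at 30 min (535.3). Control replicate 2 is the library with 20.6% mitochondrial reads, and the part of this in the sums was not tested. Without SLC12A2-DT, ZNF584-DT and FBXO38-DT, the 3 members with the most reads, the means were 508 CPM with RBI2 and 437.2 CPM with CX-5461 at 120 min. Without the 98 members that overlap another gene on their strand they were 416.7 and 358.5 CPM. A sum over members has no test here.

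**Figure D2:**
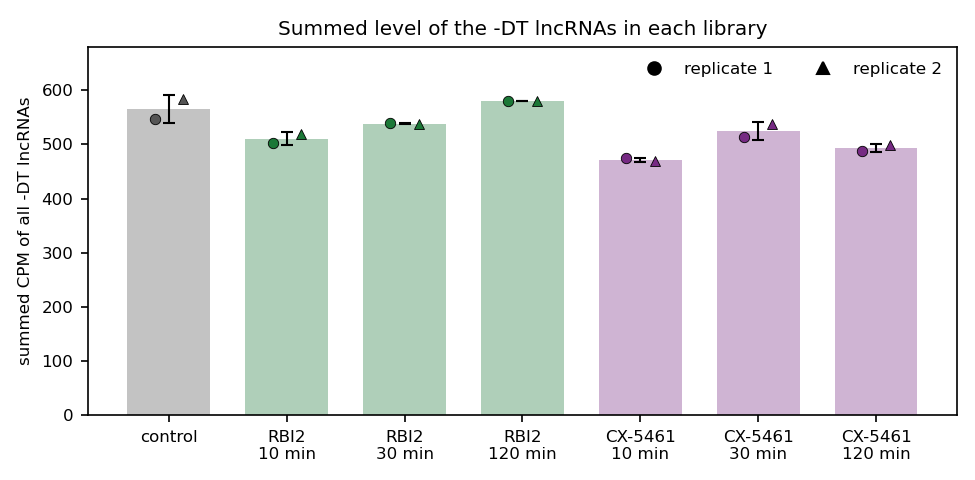
Summed CPM of the 589 -DT lncRNAs (y axis, from 0) in each group (x axis); bars are means of 2 libraries, error bars the SD, circles replicate 1 and triangles replicate 2. The means run from 471.6 CPM with CX-5461 at 10 min to 580 CPM with RBI2 at 120 min, and the control mean is 565.9 CPM.

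The comparison of each compound with the control asks which members changed with treatment. Calls were made with the quasi-likelihood test of edgeR and needed both a p, adjusted by Benjamini and Hochberg, of under 0.05 and a log2 fold change of at least 1 in size. Where unadjusted calls are given, they keep this limit on the fold change and use the unadjusted p at the same threshold. With CX-5461 at 10 min 4 of the 181 members were called, each lower: ANKRD42-DT, COX10-DT, SUV39H2-DT and STAM-DT. Of all 15426 genes 1.64% were called in this comparison, and 0.888% were called lower.

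ANKRD42-DT, next to a gene for an ankyrin repeat protein, had 3.79 and 5.11 CPM in the control and 1.62 and 1.84 CPM with CX-5461 at 10 min, or 61 and 64 reads against 30 and 33. The lncRNA (chr11:83184491-83193794, GRCh38, minus strand) overlaps PCF11-AS1 on its strand. Of the other members called here or below, COX10-DT, UBL7-DT and EOLA2-DT also overlap another gene on their strand. The log2 fold change of ANKRD42-DT was -1.36 (SE 0.222, edgeR adjusted p = 0.00646), while that of ANKRD42 was -0.08. In the other treated groups ANKRD42-DT lay between 2.31 and 3.99 CPM, so that the 2 libraries of CX-5461 at 10 min were the lowest of the 14. COX10-DT faces COX10, which makes heme O for cytochrome c oxidase, and had 7.02 and 11.5 CPM in the control and 4.37 and 4.34 CPM with CX-5461 at 10 min, again the lowest values of the series. Its log2 fold change was -1.08 (SE 0.216, edgeR adjusted p = 0.0173). COX10 itself passed without the limit on the fold change, at -0.37 (edgeR adjusted p = 0.0354).

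SUV39H2-DT faces a histone methyltransferase gene of heterochromatin. It had 1.62 and 1.44 CPM in the control and 0.593 and 0.5 CPM with CX-5461 at 10 min, a log2 fold change of -1.47 (SE 0.322, edgeR adjusted p = 0.0271). STAM-DT, next to the gene of an adaptor that sorts ubiquitinated receptors, had 1.43 and 1.76 CPM in the control and 0.647 and 0.667 CPM with CX-5461 at 10 min, a log2 fold change of -1.26 (SE 0.296, edgeR adjusted p = 0.0369). Both rest on few reads, with 18 to 26 in a control library and 9 to 12 in a treated one. The call of STAM-DT was lost in 16 of 20 other settings, among them DESeq2, the fit with no filter and 11 of the 14 fits with 1 library left out, that of SUV39H2-DT in 8, that of COX10-DT in 5 and that of ANKRD42-DT in 3. The log2 fold change of COX10-DT was -0.67 with an offset for transcript length (edgeR adjusted p = 0.204) and -0.69 without control replicate 2 (adjusted p = 0.065). SUV39H2 and STAM did not pass, with log2 fold changes of -0.15 and -0.20.

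Without the limit on the fold change, 7 members passed in this comparison, each lower, where 4.77% of all genes passed. The additional 3 were UBA6-DT at -0.55 (SE 0.099, edgeR adjusted p = 0.0102), TMCC1-DT at -0.88 (SE 0.172, adjusted p = 0.0158) and RIPK2-DT at -0.90 (SE 0.176, adjusted p = 0.0161). UBA6-DT, whose partner encodes a ubiquitin-activating enzyme, fell from 16.3 and 17.8 CPM to 11.6 and 11.6 CPM and is the best counted of the 7, with 209 to 262 reads in these 4 libraries. It overlaps other genes on its strand. TMCC1-DT went from 7.71 and 10.1 CPM to 5.28 and 4.34 CPM. RIPK2-DT, next to the gene of a kinase in NOD signalling, went from 10.5 and 14.8 CPM to 6.68 and 6.84 CPM. With the limit on the fold change, the number of calls depended on single libraries. Leaving out a library also changed which genes passed the filter, so that 200 to 206 members were tested in place of 181. Without control replicate 1 there were 19 calls among 205 members (9.27%), where 8.33% of all genes were called, and without control replicate 2 there was 1 among 206, beside 0.95%. Without CX-5461 10 min replicate 1 there were 0, beside 0.798% of all genes, and without its replicate 2 there was 1, beside 0.866%. An offset for transcript length left 0, beside 1.2% of all genes, a fit of these 4 libraries alone called 0 of 147 members and 0.0208% of all genes, and DESeq2 called 3, beside 1.69%. Unadjusted calls numbered 12 members, beside 4.19% of all genes.

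With CX-5461 at 30 min edgeR called 0 of the 181 members and 0% of all genes. Unadjusted calls numbered 8 members and 2.15% of all genes, and DESeq2 called 0 members and 0.104% of all genes. With CX-5461 at 120 min edgeR called 0 members and 0.0454% of all genes, while 12 members and 1.87% of all genes were called unadjusted and DESeq2 called 0 members and 0.0648% of all genes. The members with the lowest p at 120 min were GOT1-DT and SUV39H2-DT. GOT1-DT, next to the gene of the cytosolic aspartate aminotransferase, had 1.80 and 2.72 CPM in the control and 0.652 and 0.695 CPM, which gave a log2 fold change of -1.73 (SE 0.336, unadjusted p = 0.000368, edgeR adjusted p = 0.21). SUV39H2-DT had 0.611 and 0.464 CPM there, with a log2 fold change of -1.48 (SE 0.317, edgeR adjusted p = 0.265). At 30 min the lowest p were those of RIPK2-DT at -0.64 (SE 0.176) and NUDT16-DT at -1.41 (SE 0.396), both with an edgeR adjusted p of 0.213. With control replicate 1 left out the counts were 11 of 205 members at 30 min, beside 7.03% of all genes, and 13 at 120 min, beside 3.76%.

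With RBI2 edgeR called 0 members at 10 min, where 0.0778% of all genes were called, and 0 at 30 min, where 0.0389% were. Unadjusted calls numbered 5 members at 10 min and 2 at 30 min, beside 1.94% and 2.21% of all genes, and DESeq2 called 0 in both, beside 0.24% and 0.182%. At 10 min the lowest p were those of GALNT7-DT, with 3.36 and 4.47 CPM in the control and 2.31 and 2.41 CPM (log2 fold change -0.72, SE 0.201, edgeR adjusted p = 0.22), and of TMCC1-DT at -0.59 (SE 0.17, edgeR adjusted p = 0.227). At 30 min they were those of ZNF584-DT, with 17.3 and 13.9 CPM in the control and 22.9 and 21.9 CPM (log2 fold change 0.52, SE 0.119, edgeR adjusted p = 0.106), and of SMC5-DT. SMC5-DT, which faces a gene of the SMC5/6 complex, had 11 and 14 reads in the control and 0 and 4 reads (edgeR adjusted p = 0.109). With control replicate 1 left out there were 11 calls among 205 members at 10 min, beside 4.45% of all genes, and 10 at 30 min, beside 6.59%.

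With RBI2 at 120 min 2 members were called, where 1.82% of all genes were: ZNF132-DT higher and GOT1-DT lower. ZNF132-DT, a gene of 1 exon at chr19:58440448-58445849, had 2.67 and 3.28 CPM in the control and 6.37 and 6.16 CPM, or 43 and 41 reads against 108 and 85, a log2 fold change of 1.08 (SE 0.253, edgeR adjusted p = 0.0215). Its 2 values at 120 min were the highest of the 14 libraries, which otherwise lay between 2.25 and 4.32 CPM. ZNF132, a zinc finger gene, had 0.111 to 1.12 CPM over all libraries, and its lncRNA was 2.64 times as high per length. GOT1-DT had 0.767 and 1.16 CPM, which is a log2 fold change of -1.23 (SE 0.334, edgeR adjusted p = 0.0333), while GOT1 was at -0.04. Its call was lost in 8 of 20 other settings, among them DESeq2 and the fits without either CX-5461 library of 10 min, and that of ZNF132-DT was lost in 4. GOT1-DT was below both control libraries in each of the 12 treated libraries, which lay between 0.652 and 1.40 CPM.

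Without the limit on the fold change 7 members passed with RBI2 at 120 min, 4 higher and 3 lower, where 18% of all genes passed. The higher ones besides ZNF132-DT were UBL7-DT at 0.96 (SE 0.255, edgeR adjusted p = 0.0312), BAIAP2-DT at 0.73 (SE 0.211, adjusted p = 0.0394) and ZNF584-DT at 0.50 (SE 0.12, adjusted p = 0.0235). The lower ones besides GOT1-DT were NIPBL-DT at -0.64 (SE 0.172, adjusted p = 0.0319) and UBA6-DT at -0.56 (SE 0.1, adjusted p = 0.0109). UBA6-DT had 11.3 and 11.9 CPM and moved with its partner, since UBA6 was at -0.66 (edgeR adjusted p = 0.0265). BAIAP2-DT and NIPBL-DT were named after their values were seen. With the limit, there were 10 calls among 205 members without control replicate 1, beside 8.21% of all genes, and 1 among 206 without control replicate 2, beside 1.01%. There were 0 without RBI2 120 min replicate 1 or replicate 2, beside 0.149% and 0.284% of all genes. A fit of these 4 libraries alone called 0 members and 0% of all genes, and DESeq2 called 1 member and 1.08% of all genes. Unadjusted calls numbered 9 members, beside 3.65% of all genes.

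**Figure D3:**
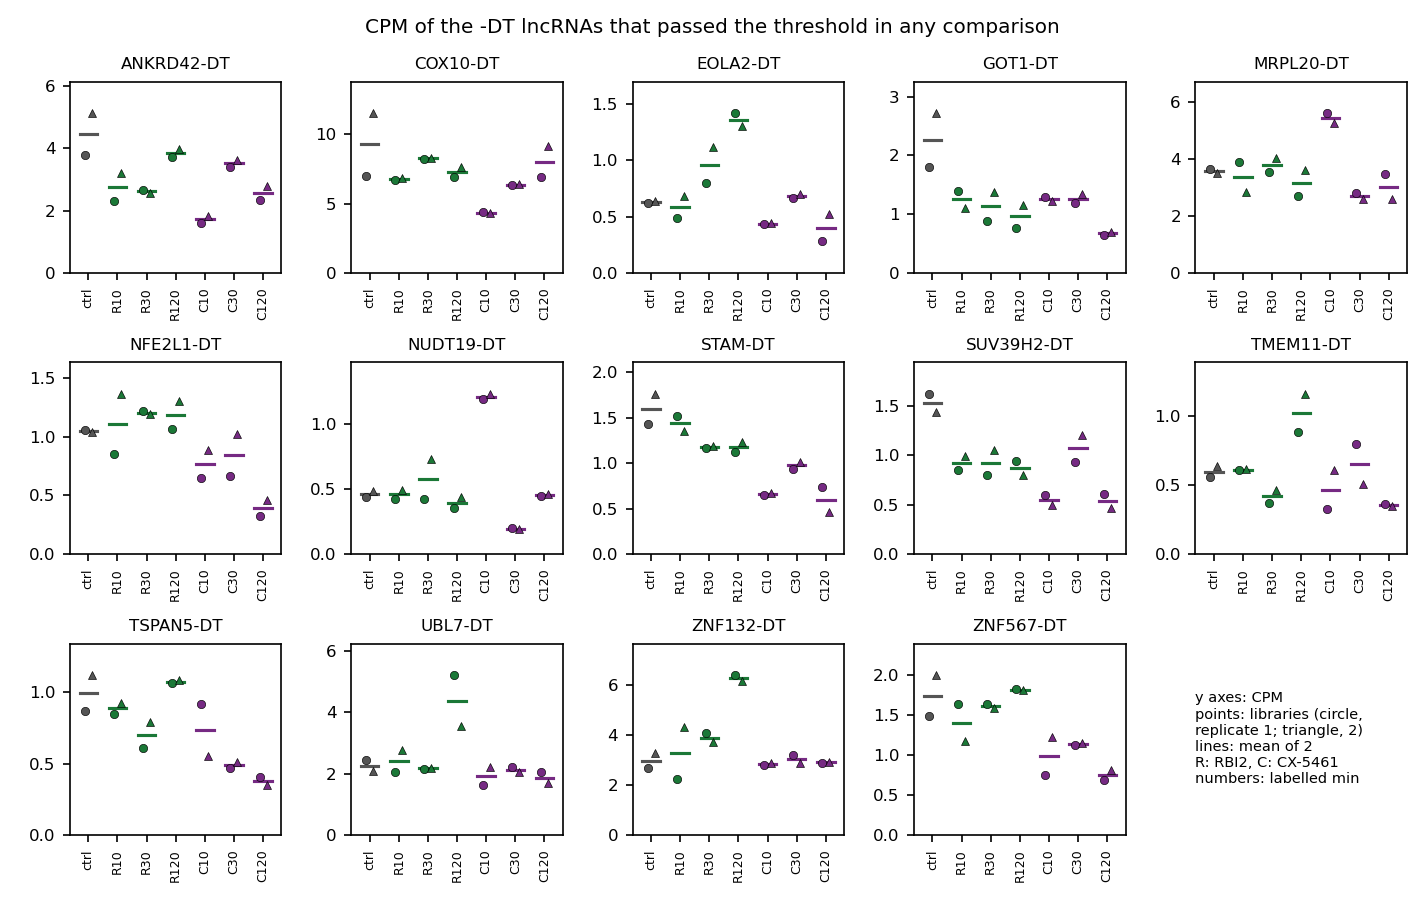
CPM (y axes, each from 0) of the 14 -DT lncRNAs called in any comparison, by group (x axes: ctrl, control; R, RBI2; C, CX-5461; labelled minutes), with circles for replicate 1, triangles for replicate 2 and lines for the mean of 2. ANKRD42-DT and COX10-DT are lowest with CX-5461 at 10 min, ZNF132-DT, UBL7-DT and EOLA2-DT are highest with RBI2 at 120 min, and NUDT19-DT is high with CX-5461 at 10 min and low at 30 min.

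The direct comparison of RBI2 with CX-5461 at one dose and time asks whether the compounds differ, and it sets neither against the control. The control libraries still entered the filter, the scaling and the pooled spread of the fit. At 10 min edgeR called 0 members and 1.04% of all genes, while 12 members and 3.05% of all genes were called unadjusted and DESeq2 called 0 members and 0.992% of all genes. RAB30-DT came nearest, with 11.1 and 10.9 CPM with RBI2 and 7.28 and 8.45 CPM with CX-5461 (log2 fold change 0.48, SE 0.115, edgeR adjusted p = 0.0512). At 30 min edgeR called 0 members and 0.013% of all genes, while 2 members and 1.45% of all genes were called unadjusted and DESeq2 called 0 members and 0.0778% of all genes. These counts do not show that the compounds acted alike: the SE of RAB30-DT was 0.115 and that of NUDT19-DT 0.358 on the log2 scale at 10 min.

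At 120 min 7 members were called, each higher with RBI2, where 1.67% of all genes were called and 1.27% were called higher. The 7 are 3.87% of the tested members, and the shares were 2.83% of 424 antisense lncRNAs and 5.45% of 1579 other lncRNAs. UBL7-DT, next to a gene of a ubiquitin-like protein, had 5.19 and 3.55 CPM with RBI2 and 2.04 and 1.68 CPM with CX-5461, a log2 fold change of 1.23 (SE 0.251, edgeR adjusted p = 0.0137). In all other groups this lncRNA, at chr15:74461248-74513971, lay between 1.62 and 2.78 CPM. ZNF132-DT had 2.89 and 2.90 CPM with CX-5461, a log2 fold change of 1.11 (SE 0.245, edgeR adjusted p = 0.017). EOLA2-DT, of 15 exons at chrX:149938613-150224580, had 1.42 and 1.31 CPM with RBI2 and 0.285 and 0.522 CPM with CX-5461, or 24 and 18 reads against 7 and 9, a log2 fold change of 1.78 (SE 0.372, edgeR adjusted p = 0.0146).

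In the other 4 both CX-5461 libraries lay below both control libraries. NFE2L1-DT, whose partner encodes a transcription factor of proteasome genes, had 1.06 and 1.31 CPM with RBI2, 0.326 and 0.464 CPM with CX-5461 and 1.06 and 1.04 CPM in control cells. The log2 fold change between the compounds was 1.59 (SE 0.384, edgeR adjusted p = 0.0229), and NFE2L1 passed without the limit on the fold change at 0.30 (adjusted p = 0.0202). TSPAN5-DT, next to a tetraspanin gene, had 1.06 and 1.09 CPM against 0.408 and 0.348 CPM, and 0.870 and 1.12 CPM in the control (log2 fold change 1.48, SE 0.362, edgeR adjusted p = 0.0236). ZNF567-DT had 1.83 and 1.81 CPM against 0.693 and 0.811 CPM, and 1.49 and 2 CPM in the control (log2 fold change 1.28, SE 0.306, edgeR adjusted p = 0.0222). TMEM11-DT, which faces a gene of the mitochondrial inner membrane, had 0.885 and 1.16 CPM against 0.367 and 0.348 CPM, with 0.559 and 0.639 CPM in the control between them (log2 fold change 1.49, SE 0.408, edgeR adjusted p = 0.0339). With the offset for transcript length the log2 fold change of ZNF567-DT was 0.29 (edgeR adjusted p = 0.777). Of 20 other settings, the call of TMEM11-DT was lost in 11, that of TSPAN5-DT in 7 and those of NFE2L1-DT, ZNF567-DT and EOLA2-DT in 6 each, while UBL7-DT and ZNF132-DT lost theirs in 4 each. None of these members was called against the control at 120 min except ZNF132-DT with RBI2.

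TMED2-DT at 0.97 (SE 0.206, edgeR adjusted p = 0.0149) and BAIAP2-DT at 0.80 (SE 0.206, adjusted p = 0.0276) passed as well without the limit on the fold change, so that 9 members passed, each higher with RBI2, where 16.1% of all genes passed. TMED2 moved the other way at -0.39 (edgeR adjusted p = 0.00826). Larger fitted values did not pass where reads were few, as for CELF2-DT at 3.08 (SE 1.19, edgeR adjusted p = 0.104) with 12 and 9 reads against 0 and 3, which was tested only through RBI2 at 120 min. TMED2-DT and CELF2-DT were named after their values were seen. With the limit, the count was 0 without RBI2 120 min replicate 1 or replicate 2, beside 0.118% and 0.0309% of all genes. It was 1 without CX-5461 120 min replicate 1 or replicate 2, beside 1.6% and 0.154%, and leaving out any other library gave 6 to 9, beside 1.22% to 2.44%. DESeq2 called 3, beside 0.998% of all genes, and the offset for transcript length left 1, beside 1.34%. A fit of these 4 libraries alone called 11 of 155 members (7.1%), beside 2.68% of all genes. Unadjusted calls numbered 14 members, beside 3.67% of all genes. The 14 include CELF2-DT, for which reads with RBI2 at 120 min were a condition of being tested.

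Between the times of one compound edgeR, fitted to all 14 libraries after the filter, called members in 1 of 6 comparisons. CX-5461 at 10 min differed from 30 min in 3 of the 181, where 0.888% of all genes were called. NUDT19-DT (chr19:32686918-32691764), next to a gene of a coenzyme A hydrolase, had 1.19 and 1.22 CPM at 10 min and 0.200 and 0.191 CPM at 30 min, or 22 and 22 reads against 3 and 3, a log2 fold change of 2.58 (SE 0.412, edgeR adjusted p = 0.00765). The control stood between them at 0.435 and 0.479 CPM. NUDT19-DT would not have been tested without the libraries of CX-5461 at 10 min, the group in which it was high, so that its test after the filter is not independent of that group. In a fit with no filter its log2 fold change was 2.57 (edgeR adjusted p = 0.00413). MRPL20-DT, next to a mitochondrial ribosomal protein gene, had 5.61 and 5.28 CPM against 2.80 and 2.61 CPM (log2 fold change 1.01, SE 0.214, edgeR adjusted p = 0.0347). ANKRD42-DT had 1.62 and 1.84 CPM against 3.395 and 3.626 CPM (log2 fold change -1.02, SE 0.224, edgeR adjusted p = 0.0416). NUDT19 and MRPL20 stood at 0.10 and -0.05. DESeq2 called 0 of the members here, beside 0.856% of all genes, and edgeR called 0 without any one of these 4 libraries, beside 0.449% to 0.584%. Over 20 other settings the call of MRPL20-DT was lost in 15, that of ANKRD42-DT in 12 and that of NUDT19-DT in 5. With the length offset ANKRD42-DT stood at -0.50 (edgeR adjusted p = 0.768). Unadjusted calls numbered 9 members, beside 2.64% of all genes.

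In the other 5 comparisons between times the edgeR fit of all 14 libraries after the filter and DESeq2 called 0 members. DESeq2 called 0.0259% to 0.823% of all genes. For RBI2 the shares of all genes called were 0.0583% at 10 against 30 min, 0.694% at 10 against 120 min and 0.013% at 30 against 120 min. Unadjusted calls there numbered 4, 6 and 7 members, beside 1.02%, 2.62% and 1.6% of all genes. For CX-5461 the shares were 0.888% at 10 against 120 min and 0.013% at 30 against 120 min, with 7 and 2 members called unadjusted, beside 2.68% and 1.37% of all genes. A fit of the 4 libraries alone called 3 of 160 members for RBI2 at 10 against 120 min and 1 of 156 at 30 against 120 min, beside 1.57% and 0.622%. With no filter these 2 comparisons gave 2 and 1 of 523 members, beside 1.15% and 0.675%. CX-5461 at 10 against 120 min then gave 1, beside 1.22%.

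Over the 181 tested members the median log2 fold change with CX-5461 was -0.24 at 10 min, -0.06 at 30 min and -0.15 at 120 min, beside -0.04, -0.05 and 0.06 over all genes tested. With RBI2 it was -0.02, -0.02 and 0.03, beside 0.01, -0.01 and 0.01. Over the fits with 1 library left out, the RBI2 medians ran from -0.101 to 0.049 at 10 min and from -0.053 to 0.043 at 30 min. Leaving out 1 library moved the median with CX-5461 at 30 min from -0.185 (without CX-5461 30 min replicate 2) to 0.055 (without its replicate 1), and over members of at least 1 CPM the median with RBI2 at 120 min was -0.02. Below 0 were 119 of the 181 members (65.75%) with CX-5461 at 10 min, 98 (54.14%) at 30 min and 125 (69.06%) at 120 min, beside 53.96%, 54.67% and 41.06% of all genes. For antisense lncRNAs these shares were 62.26%, 60.14% and 64.62%, and for the remaining lncRNAs 65.1%, 61.62% and 61.87%. Between RBI2 and CX-5461 the median was 0.16 at 10 min, 0.05 at 30 min and 0.27 at 120 min, with 131 of 181 (72.4%) above 0 at 120 min, beside 50.7% of all genes. In that comparison 74.76% of antisense lncRNAs and 73.97% of the remaining lncRNAs were above 0. Over members of at least 1 CPM the median between compounds at 120 min was 0.16, and leaving out 1 library moved that at 30 min from -0.07 (without CX-5461 30 min replicate 1) to 0.13 (without its replicate 2). The remaining lncRNAs had medians of -0.23 with CX-5461 at 10 min and 0.32 for RBI2 against CX-5461 at 120 min, and antisense lncRNAs had -0.14 and 0.25. With RBI2 at 120 min these 2 classes stood at 0.18 and 0.13, against 0.03 for the -DT lncRNAs. They were at -0.15 and -0.11 with CX-5461 at 30 min, and at 0.167 and 0.125 between compounds at 30 min. No test of a difference between these classes was made. With a length offset the median of CX-5461 at 10 min was -0.11 and that of the direct comparison at 120 min 0.19.

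**Figure D4:**
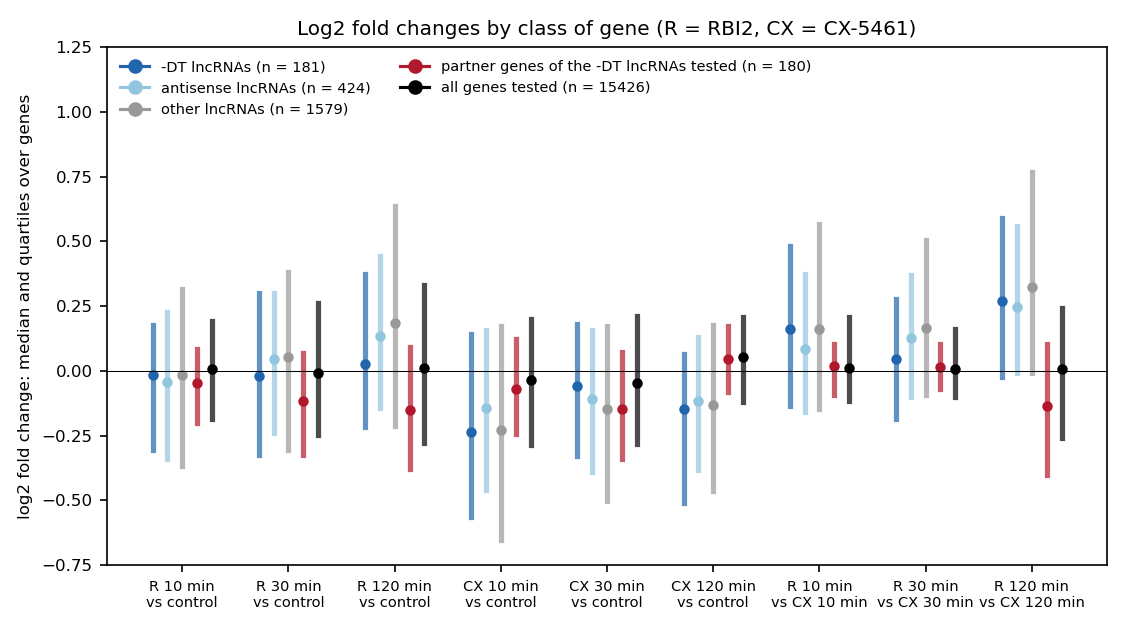
Log2 fold change (y axis) in the 6 comparisons with the control and the 3 between compounds (x axis; R, RBI2; CX, CX-5461); points are medians and bars quartiles over the genes of each class tested, not errors. In the last comparison the -DT lncRNAs, with a median of 0.27, lie near the other lncRNAs (0.32) while their partner genes are at -0.14.

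The partner genes were compared with the lncRNAs pair by pair. Partners of the tested members had a median log2 fold change of -0.07 with CX-5461 at 10 min, -0.15 at 30 min and 0.05 at 120 min, and of -0.05, -0.12 and -0.15 with RBI2 at these times. Over the 180 pairs with both genes tested, the Pearson correlation of the log2 fold changes was 0.09 with CX-5461 at 10 min, 0.11 with RBI2 at 120 min and 0.07 for RBI2 against CX-5461 at 120 min, and over the 15 comparisons it lay between -0.03 and 0.23. These points share libraries and scaling, and the correlations are descriptions. In the direct comparison at 120 min the lncRNA had the higher fold change in 144 of the 180 pairs, by a median of 0.48 on the log2 scale. The partners had a median of -0.135 there. Antisense and the remaining lncRNAs, which belong to none of these pairs, had medians of 0.245 and 0.322. Whether the difference is particular to divergent pairs was not tested. At 10 and 30 min the lncRNA was higher in 112 and 94 pairs, with median differences of 0.14 and 0.03. Against the control at 120 min the lncRNA was higher in 119 pairs with RBI2 and lower in 129 with CX-5461.

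**Figure D5:**
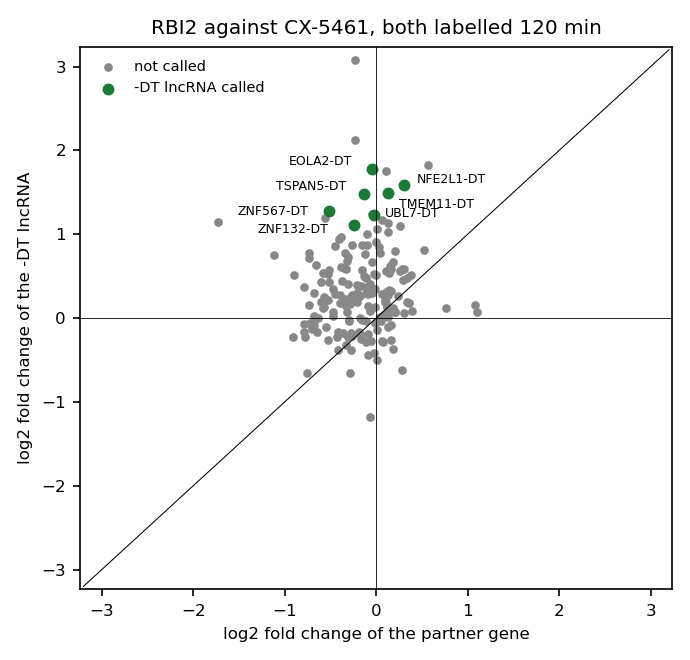
Log2 fold change of RBI2 against CX-5461, both at 120 min, of each partner gene (x axis) and its -DT lncRNA (y axis) in 180 pairs, with green points for the 7 lncRNAs called and a line where both are equal. Most points, 144 of 180, lie above the line, and the Pearson correlation is 0.07.

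Genes whose products restrain or degrade such transcripts were followed with a list of 48: subunits of the exosome, its NEXT, PAXT and TRAMP adaptors, the cap-binding complex, Integrator, the ZC3H4 restrictor, the 3′ end cleavage factors CPSF3 and CPSF4, and U1 snRNP proteins. All 48 were tested, and edgeR called 0 in each of the 15 comparisons, where at most 1.82% of all genes were called. At an unadjusted p under 0.05, here with no limit on the fold change, there were 24 with RBI2 at 120 min, 8 with CX-5461 at 10 min and 17 in the direct comparison at 120 min, beside 35.9%, 22.5% and 31.6% of all genes. DESeq2 called 1, 1 and 0 in these, beside 1.08%, 1.69% and 0.998% of all genes. The largest fitted value was that of INTS2, at -4.07 with RBI2 at 120 min (edgeR adjusted p = 0.0504), and it had 11 and 346 reads in the control libraries against 8 and 17. Without the limit on the fold change 14 of the 48 passed with RBI2 at 120 min, 4 higher and 10 lower, where 18% of all genes passed. The lower ones included DIS3 at -0.70 (edgeR adjusted p = 0.0166) and EXOSC10 at -0.48 (adjusted p = 0.0417), the nucleases of the nuclear exosome, MTREX at -0.41 (adjusted p = 0.0302), its helicase, and RBM7 at -0.56 (adjusted p = 0.0157) of NEXT. Also lower were INTS6 at -0.59 (edgeR adjusted p = 0.0484), INTS7 at -0.54 (adjusted p = 0.0168) and INTS8 at -0.37 (adjusted p = 0.0274). So were ZCCHC7 at -0.44 (edgeR adjusted p = 0.026), TENT4A at -0.41 (adjusted p = 0.0309) and EXOSC9 at -0.38 (adjusted p = 0.021). The higher ones were INTS1 at 0.91 (adjusted p = 0.00456), ZC3H4 at 0.57 (adjusted p = 0.00593), EXOSC6 at 0.54 (adjusted p = 0.0147) and ZC3H3 at 0.53 (adjusted p = 0.0286). With CX-5461 at 10 min, where 4.77% of all genes passed, RBM7 alone passed, at -0.73 (edgeR adjusted p = 0.00577). In the direct comparison at 120 min 5 were higher and 5 lower with RBI2, where 16.1% of all genes passed. Whether these levels bear on the -DT lncRNAs was not tested.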

How the data were processed

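Poly(A) libraries of MDA-MB-231 cells were made with a stranded mRNA kit and sequenced. The authors deposited 1 Salmon table per library with estimated counts and TPM of 228754 transcripts, beside transcript lengths, which are in bases. The submitters' processing notes name STAR 2.7.6a, SAMtools 1.11, bedtools 2.29.2, Salmon 1.3.0 and DESeq2 1.28.1. Reads that aligned to the ribosomal DNA repeat were removed by the authors before Salmon, so that these reads are not part of a library's total. The transcript release is not given in the sources used here. Salmon divides reads that fit several transcripts, so that levels of overlapping genes on 1 strand are uncertain.

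Transcripts were assigned to genes with GENCODE 44 (GRCh38), which matched 225662 of them and left 1.03% to 1.13% of the reads of a library out. Estimated counts were summed per gene and rounded to whole numbers, and TPM were summed per gene. A gene was tested when edgeR's filter with a minimum count of 10 kept it (15426 genes). In edgeR 4.0.16 (R 4.3.3, limma 3.58.1) 1 model with 7 groups was fitted to all 14 libraries with TMM scaling, and 15 comparisons were tested with the quasi-likelihood F test, 2-sided. P-values were adjusted by Benjamini and Hochberg over all genes tested in a comparison. A gene was called at an adjusted p under 0.05 and a log2 fold change of at least 1. The SE of a fold change is its size divided by the square root of F. CPM use the TMM-scaled library sizes. The common coefficient of variation was 12.3%. The script was tested on simulated counts. The alternatives were DESeq2 1.42.0, its size factors in edgeR, no filter, an offset for transcript length, a replicate block, the 4 libraries of a comparison alone, no limit on the fold change, unadjusted p, and leaving out each library.

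Named are the members called in any comparison, the 10 highest by mean TPM, the 2 with the lowest p in each comparison with the control, and their partners. The 3 members with the most reads are named beside the sums, and UHRF1BP1L-DT and TNFRSF10A-DT for their annotation. Others are marked as chosen after their values were seen. The members, lists and tests were chosen with earlier results of these data known. Promoter sequences are from RefSeq (GRCh38.p14), and the 1000 bases after a start from the GRCh38 genome. Motifs were searched on both strands in promoters and on the sense strand after a start.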

Additional observations from a re-analysis of the deposited data

Results flagged for a closer look

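The effects below differed between the compounds or between the times of CX-5461 by a test of the difference itself (edgeR's quasi-likelihood test, adjusted over all genes). Between RBI2 and CX-5461 at 120 min, the log2 difference was 1.78 for EOLA2-DT, 1.59 for NFE2L1-DT, 1.49 for TMEM11-DT, 1.48 for TSPAN5-DT, 1.28 for ZNF567-DT, 1.23 for UBL7-DT and 1.11 for ZNF132-DT, each higher with RBI2 in both libraries. That of ZNF567-DT was 0.291 with an offset for transcript length (adjusted p = 0.777) and 1.151 to 1.417 in the fits with 1 library left out. Between CX-5461 at 10 and at 30 min the log2 difference was 2.58 for NUDT19-DT and 1.01 for MRPL20-DT, both higher at 10 min, and -1.02 for ANKRD42-DT, lower at 10 min. That of ANKRD42-DT was -0.50 with the offset for transcript length (edgeR adjusted p = 0.768). Of 20 other settings, the call of MRPL20-DT was lost in 15, that of ANKRD42-DT in 12 and that of NUDT19-DT in 5. In these comparisons no library held more than 24 reads of EOLA2-DT, 22 of NUDT19-DT, 18 of NFE2L1-DT, 18 of TSPAN5-DT or 16 of TMEM11-DT. NUDT19-DT had 3 reads in either library of CX-5461 at 30 min, and its fold change has an SE of 0.412 on the log2 scale. It would not have been tested without the libraries of CX-5461 at 10 min, the group in which it was high, and with no filter the difference was 2.57.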

How the results depend on the processing

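No call of a named member changed its direction under any setting. The shares beside the counts are those of all genes called in the same fit. No filter on low counts, with 523 members tested, called 2, 2 and 5 members with RBI2 at 10, 30 and 120 min (1.04%, 1.31% and 1.93%), 7, 2 and 3 with CX-5461 (2.12%, 1.18% and 0.961%), 1 and 9 between compounds at 10 and 120 min (1.16% and 1.73%), and between times 2 for RBI2 10 against 120 min (1.15%), 1 for RBI2 30 against 120 min (0.675%), 2 for CX-5461 10 against 30 min (0.976%) and 1 for CX-5461 10 against 120 min (1.22%). DESeq2 called 1 with RBI2 at 120 min (1.08%), 3 between compounds at 120 min (0.998%) and 0 for CX-5461 at 10 against 30 min (0.856%). An offset for transcript length called 1 with RBI2 at 120 min (0.532%), 0 with CX-5461 at 10 min (1.2%), 1 between compounds at 120 min (1.34%) and 1 for CX-5461 at 10 against 30 min (0.674%). The 4 libraries alone called 0 with RBI2 at 120 min (0%), 0 with CX-5461 at 10 min (0.0208%), 1 and 11 between compounds at 10 and 120 min (1.78% and 2.68%), and 3 and 1 for RBI2 at 120 min against 10 and 30 min (1.57% and 0.622%). No limit on the fold change called 7 with RBI2 at 120 min (18%) and 7 with CX-5461 at 10 min (4.77%). An unadjusted p under 0.05 with the limit on the fold change gave 5, 2 and 9 for RBI2 (1.94%, 2.21% and 3.65%), 12, 8 and 12 for CX-5461 (4.19%, 2.15% and 1.87%), 12, 2 and 14 between compounds (3.05%, 1.45% and 3.67%), and 4, 6, 7, 9, 7 and 2 between times (1.02%, 2.62%, 1.6%, 2.64%, 2.68% and 1.37%). The 14 members between compounds at 120 min include CELF2-DT, which was tested only through RBI2 at 120 min. The causes were not tested.

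Leaving out 1 library left 200 to 206 members tested and gave 0 to 11, 0 to 10 and 0 to 10 calls with RBI2 at 10, 30 and 120 min and 0 to 19, 0 to 11 and 0 to 13 with CX-5461. Called among all genes were 0.0431% to 4.45%, 0% to 6.59% and 0.149% to 8.21%, then 0.798% to 8.33%, 0% to 7.03% and 0.0124% to 3.76%. Between compounds it gave 0 to 1, 0 to 0 and 0 to 9 calls, beside 0.585% to 1.39%, 0% to 0.037% and 0.0309% to 2.44% of all genes. Between times it gave 0 to 0, 0 to 1 and 0 to 0 for RBI2, and 0 to 3, 0 to 2 and 0 to 0 for CX-5461, beside 0.0308% to 0.117%, 0.0433% to 1.33% and 0.00618% to 0.179%, then 0.449% to 1.1%, 0.297% to 1.36% and 0.00615% to 0.369% of all genes. The highest counts against the control came without control replicate 1. A group then left with 1 library is assumed to vary like the others.

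The labels do not say whether replicate numbers pair the libraries. The correlations of replicate differences between groups lay between -0.260 and 0.250. With 2 libraries a group, these values cannot decide whether libraries were paired. With the replicate block 2 members were called with RBI2 at 120 min (1.56% of all genes), 3 with CX-5461 at 10 min (1.54%), 7 between compounds at 120 min (1.58%) and 2 for CX-5461 at 10 against 30 min (0.83%).

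The sums in CPM with no scaling factor were 527.5 in the control, 478.9 with CX-5461 at 10 min, 535.3 at 30 min and 484.8 at 120 min, and 556.3 and 580.6 with RBI2 at 30 and 120 min. With DESeq2 size factors they were 483.7 with CX-5461 and 579.4 with RBI2 at 120 min. Without the 3 members with the most reads they were 501.2 CPM in the control, 458.1, 478.1 and 508 for RBI2, then 419.1, 467.8 and 437.2 for CX-5461. Without overlapping members they were 401, then 374.4, 392.5 and 416.7, then 353.6, 386.9 and 358.5. A single library gave 547.4 to 584.5 in the control, 501.8 to 519.7, 537.5 to 539.1 and 579.8 to 580.2 with RBI2, and 469.1 to 474, 513 to 537.3 and 488.7 to 499.2 with CX-5461.

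The median log2 fold change over members of at least 1 CPM was -0.064 with RBI2 at 10 min, -0.022 at 120 min, -0.280 with CX-5461 at 10 min, and 0.128 and 0.160 between compounds at 10 and 120 min. With the length offset, added after seeing the data, it was 0.067 and 0.076 with RBI2 at 30 and 120 min, -0.109 and -0.188 with CX-5461 at 10 and 120 min, and 0.099 and 0.193 between compounds at 10 and 120 min. DESeq2 size factors, also added, gave 0.297 between compounds at 120 min. Leaving out 1 library gave -0.101 to 0.049, -0.053 to 0.043 and 0.020 to 0.064 with RBI2, -0.246 to -0.180, -0.185 to 0.055 and -0.226 to -0.136 with CX-5461, and 0.093 to 0.172, -0.067 to 0.125 and 0.200 to 0.317 between compounds. Depth limits members near 1 CPM, which stands for 12.5 to 24.6 reads.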
